A study of Mus musculus with 4 samples.

Results

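The proline- and acidic-rich basic leucine zipper (PAR-bZIP) factors Dbp, Tef and Hlf, their competitor Nfil3, the DEC repressors Bhlhe40 and Bhlhe41, and the clock repressor Ciart were followed in cultured mouse colon ILC2s. They are 7 of 55487 genes in the count table and were found by symbol. They were chosen by their measured fold change between FK866 and control libraries as well as by what they do, so their values in that contrast are a description, with the number called but no test of their own. ILC2s are innate lymphoid cells that make type 2 cytokines. There were 2 libraries of ILC2s exposed to FK866 for 16 h and 2 control libraries, and the series design has the sorted cells kept in the alarmins IL-33 and IL-25 with IL-7 and IL-2. FK866 inhibits NAMPT, the enzyme that recycles nicotinamide towards NAD+. The labels give no strain, age, sex or number of animals, no vehicle for the controls and no hour of sampling within the day, and no label says that replicates came from separate cultures.

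In the mammalian clock, CLOCK and BMAL1 drive genes through E-boxes, and many of the products hand the rhythm on to other genes. DBP, TEF and HLF activate genes through D-boxes, and NFIL3 (also called E4BP4) represses from the same sites, so that the balance of these proteins sets D-box output. BHLHE40 and BHLHE41 compete for E-boxes, and CIART (also called CHRONO) represses CLOCK and BMAL1 directly. In innate lymphoid cells NFIL3 is known from mouse knockouts as a factor needed in their progenitors.

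The genes lie apart in the genome, with positions from GENCODE M21 on build mm10. Hlf (ENSMUSG00000003949) is at chr11:90336536-90390895 on the minus strand, Tef (ENSMUSG00000022389) at chr15:81802421-81826863 on the plus strand, and Dbp (ENSMUSG00000059824) at chr7:45705088-45710203 on the plus strand. Nfil3 (ENSMUSG00000056749) is at chr13:52967209-52981073 on the minus strand and Ciart (ENSMUSG00000038550) at chr3:95878503-95882251 on the minus strand. Bhlhe40 (ENSMUSG00000030103, chr6:108660629-108666925, plus strand) and Bhlhe41 (ENSMUSG00000030256, chr6:145858243-145865558, minus strand) share a chromosome. All are protein-coding.

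The promoters were searched for the clock's own element close to the start. The RefSeq promoter table of build GRCm38.p6 held 7 promoters of 6 of the genes, and Bhlhe40 had no entry. The 250 bases before each start were searched on both strands for the E-box CACGTG, the D-box TTATGTAA or TTACGTAA, and the core of a ROR element, TAGGTCA or TGGGTCA. The stretches of 4 genes are printed from 5′ to 3′ on the strand of the gene, with matches in capitals: the repressor gene Ciart with the most E-boxes, Tef at its upstream start with 1, and Hlf and Nfil3, the pair with the largest fold changes below.
Ciart (chr3:95882229-95882478, minus strand): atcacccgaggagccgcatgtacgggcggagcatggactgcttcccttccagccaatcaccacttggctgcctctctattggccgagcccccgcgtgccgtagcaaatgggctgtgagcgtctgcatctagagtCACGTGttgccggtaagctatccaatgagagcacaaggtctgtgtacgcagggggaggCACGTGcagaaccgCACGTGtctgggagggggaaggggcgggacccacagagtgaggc
Tef (chr15:81802423-81802672, plus strand): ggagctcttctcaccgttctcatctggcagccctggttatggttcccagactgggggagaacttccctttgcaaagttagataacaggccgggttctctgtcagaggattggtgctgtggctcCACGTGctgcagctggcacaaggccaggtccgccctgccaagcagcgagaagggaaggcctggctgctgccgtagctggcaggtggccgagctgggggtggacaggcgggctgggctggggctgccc
Hlf (chr11:90390918-90391167, minus strand): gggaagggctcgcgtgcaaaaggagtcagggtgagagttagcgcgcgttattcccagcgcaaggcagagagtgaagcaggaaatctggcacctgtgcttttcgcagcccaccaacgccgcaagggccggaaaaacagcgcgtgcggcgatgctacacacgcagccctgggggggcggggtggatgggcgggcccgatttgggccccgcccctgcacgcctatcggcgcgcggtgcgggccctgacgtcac
Nfil3 (chr13:52981040-52981289, minus strand): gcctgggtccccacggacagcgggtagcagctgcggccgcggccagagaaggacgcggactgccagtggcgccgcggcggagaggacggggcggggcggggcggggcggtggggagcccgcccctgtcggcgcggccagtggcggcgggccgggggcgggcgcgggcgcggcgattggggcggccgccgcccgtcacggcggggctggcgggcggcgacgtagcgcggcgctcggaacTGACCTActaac
Ciart held 3 E-boxes, which begin 116, 58 and 44 bases before the start. Each of the 2 promoters of Tef held 1 E-box, 127 and 138 bases before its RefSeq start, and that of Bhlhe41 held 1, at 153 bases. Over all 32851 promoters searched in the same way, 6.02% held an E-box. The windows of Hlf, Nfil3 and Dbp held none. Nfil3 held 1 ROR element core, read on the opposite strand, which begins 12 bases before the start; 5.38% of all promoters held such a core. No window held a D-box, against 0.931% of all promoters. The starts are those of RefSeq and differ from the GENCODE gene ends given above. By the GENCODE positions, both Tef windows with their E-boxes and the ROR element core of Nfil3 lie inside the gene. The windows of Dbp, Nfil3, Bhlhe41 and Ciart reach partly into the gene, and that of Hlf does not. A match is a run of letters and not a measured binding site. Elements outside these windows or with other letters were not searched for, so a window without a match does not mean a gene without the element.

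The libraries held 27617750 and 32241615 counts in FK866 and 37841233 and 32540325 in control. FK866 replicate 2 stood apart in breadth: 22461 genes reached 10 counts there, and 17152 to 18667 did in each other library. The labelled cell type was checked against 14 ILC2 markers, which summed to 5238 to 6238 CPM (counts scaled by library size) in FK866 and 6479 to 6575 CPM in control, with Rora called higher and Il13, Nmur1 and Id2 lower. ILC3 markers summed to 139.2 to 267.7 CPM in FK866 and 168.5 to 282.8 CPM in control, and 2 of the 6 were called higher, Il17f (37.6 and 51.8 CPM in FK866, 9.06 and 8.65 CPM in control) and Il23r. No gene was called in the marker lists of T cells (21.2 to 21.6 CPM in FK866, 20.5 CPM in both controls), B cells, NK cells and ILC1s, macrophages and dendritic cells, mast cells and basophils, epithelium, or stroma and endothelium. Stromal and endothelial markers, mostly Pecam1, summed to 191.4 to 228.3 CPM in FK866 and 144.6 to 182.8 CPM in control. B cell markers, mostly Cd79b, summed to 19.3 to 25.8 CPM in FK866 and 31.6 to 34.9 CPM in control. The sums for NK cells and ILC1s were also lower in FK866 (7.30 to 9.53 CPM against 10.3 to 10.9 CPM), and the other sums not given here overlapped. Epithelial markers summed to 31.1 to 41.5 CPM in FK866 and 46.2 to 59.0 CPM in control, most of it Epcam (25.1 and 36.9 CPM in FK866, 41.3 and 54.1 CPM in control), while Krt8 had 0 counts in every library. The part of other cells in the values below was not tested.

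Hlf stood furthest from control of all the factors, with Nfil3 next, Bhlhe40 after it, and Dbp on the other side of 0. Of the 6 factors that passed the filter on low counts, 3 were called higher in FK866 (Hlf, Nfil3 and Bhlhe40) and 0 lower, where 5.31% of all 19194 tested genes were called higher and 7.89% lower (quasi-likelihood test of edgeR, p adjusted by Benjamini-Hochberg, threshold 0.05). Nothing is read from this count, since the choice of the genes used the same contrast. CPM carry TMM scaling factors, and in RNA from bulk cells fewer cells of a type and less RNA per cell cannot be told apart. In 5 of the 6, both FK866 libraries lay above both controls, as they did in 28.4% of tested genes. In Dbp both lay below, as in 29.3% of tested genes.

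**Figure D1:**
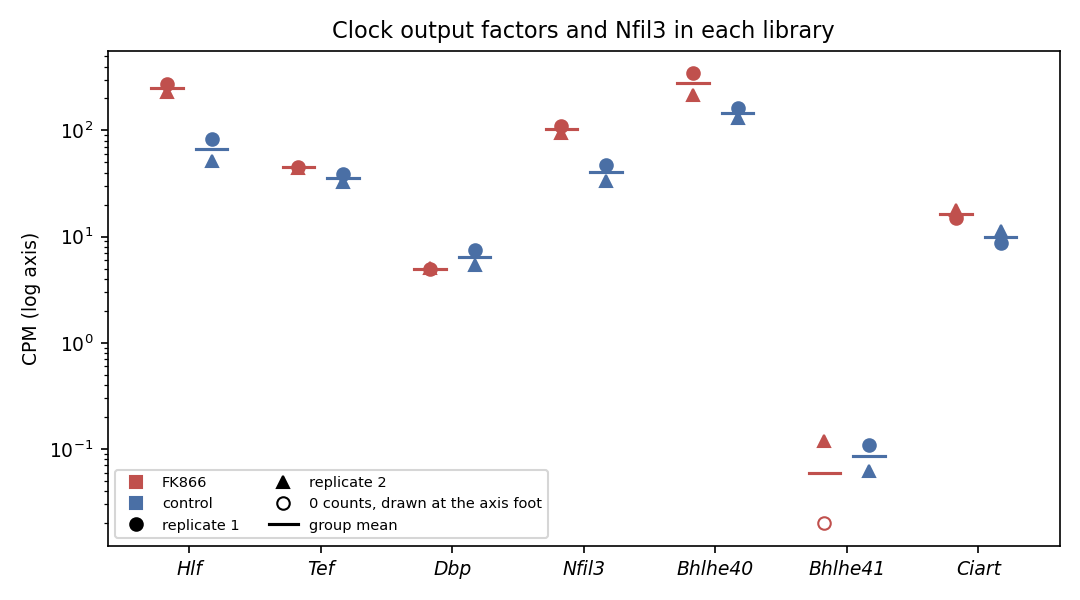
CPM (log axis) of each factor in each library, FK866 in red left of control in blue, circles for replicate 1, triangles for replicate 2, bars for group means; an open symbol is a library with 0 counts. Hlf, Nfil3 and Bhlhe40 are abundant and higher in FK866, Tef and Dbp lie close to control, and Bhlhe41 is near 0 throughout.

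Hlf encodes hepatic leukemia factor, a PAR-bZIP activator also known from blood stem cells and from a leukaemia fusion gene. Its level was 274.4 and 228.1 CPM in FK866 replicates 1 and 2, against 82.2 and 51.5 CPM in control replicates 1 and 2. Both FK866 libraries lay far above both controls, and each FK866 library was 2.77 to 5.32 times each control. The means were 251.2 ± 32.7 CPM in FK866 and 66.9 ± 21.7 CPM in control (SD, n = 2 each), a fitted log2 fold change of 1.91 ± 0.22 (SE), or 3.75-fold. By fold change Hlf stood at place 854 of the 19194 tested genes, counted from the highest. Leaving out any 1 library kept the log2 value between 1.61 and 2.18.

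Tef, thyrotroph embryonic factor, is the second PAR-bZIP activator. It had 45.4 and 44.5 CPM in FK866 libraries, against 38.7 and 32.8 CPM in controls. The groups did not overlap, but the gap was small, with a log2 fold change of 0.33 ± 0.16 (SE) that was not called. Dbp, the albumin D-box binding protein gene and among the most rhythmic direct targets of CLOCK and BMAL1, was the least abundant of the 3 and did not follow Hlf. It had 4.97 and 5.03 CPM in FK866 libraries, against 7.40 and 5.43 CPM in controls, from 134 to 269 counts a library. Its log2 fold change of -0.36 ± 0.30 (SE) was not called. For Dbp, 18.01% of the exon bases overlap Sphk2 on the opposite strand, whose own level was 28.4 to 37.1 CPM in FK866 and 36.3 to 47.6 CPM in control. The libraries do not mark the strand, so some of the counts of Dbp may be reads of Sphk2.

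The 3 PAR-bZIP genes were led by Hlf, and more so after FK866. Per kilobase of exon, Hlf made up 84.7% and 82.3% of their summed level in FK866 libraries, against 62.5% and 56.3% in controls. Tef held 11.9% and 13.6% of the sum in FK866 libraries, against 25.0% and 30.5% in controls. Dbp held 3.42% and 4.05% in FK866 libraries, against 12.6% and 13.2% in controls. These are shares of a sum whose largest term moved, and the levels of Tef and Dbp are those given above.

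Nfil3, the repressor that binds the same D-boxes, moved the same way as Hlf. It had 110.6 and 94.3 CPM in FK866 libraries, against 47.5 and 33.2 CPM in controls. Every FK866 library was between 1.99 and 3.33 times every control. The means were 102.5 ± 11.5 CPM in FK866 and 40.3 ± 10.1 CPM in control (SD, n = 2 each), a log2 fold change of 1.34 ± 0.19 (SE). With each library left out in turn the value stayed between 1.11 and 1.52. Replicate 1 was higher than replicate 2 in both groups for Hlf and Nfil3, by 1.20 and 1.17 times in FK866 and by 1.60 and 1.43 times in control.

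Set beside each other, the transcripts of the activators and of the repressor of the D-box stood in a similar ratio in both groups. Their protein levels and their binding to D-boxes were not measured. Per kilobase of exon, Dbp, Tef and Hlf summed to 48.5 and 41.5 CPM in FK866 libraries, where Nfil3 stood at 54.6 and 46.6. In controls the sum was 19.7 and 13.7 CPM per kilobase and Nfil3 was at 23.4 and 16.4. The sum was 0.888 and 0.891 times Nfil3 in FK866 libraries, against 0.841 and 0.836 times in controls. Both which of them is higher and the sign of the difference between groups depend on the gene length used. Per kilobase of all exons the mean log2 ratio was higher by 0.085 in FK866 than in control. Per kilobase of the longest transcript the sum lay above Nfil3 in every library, at 1.13 and 1.14 times Nfil3 in FK866 and 1.17 and 1.19 times in control, and the difference was -0.056. With 2 libraries a group no exact permutation test of the ratio can reach the threshold, since the smallest two-sided p is 0.333.

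**Figure D2:**
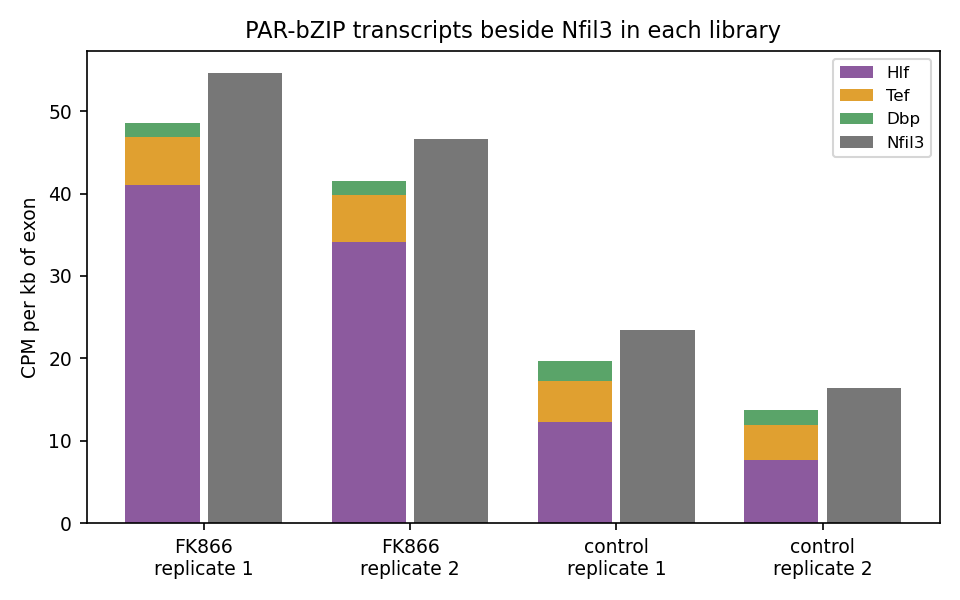
CPM per kilobase of exon in each library, with Hlf, Tef and Dbp stacked in one bar and Nfil3 in the grey bar beside it. Both bars are taller in the FK866 libraries, the stack is a little below Nfil3 in every library (above it in all 4 per kilobase of the longest transcript), and most of the added height is Hlf.

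Bhlhe40 encodes DEC1, an E-box repressor that also shapes cytokine output of activated lymphocytes. It had 345.7 and 214.3 CPM in FK866 libraries, against 162.2 and 130.9 CPM in controls. Both FK866 libraries lay above both controls, but they differed 1.61-fold from each other, and FK866 replicate 2 was 1.32 times the higher control. The means were 280.0 ± 92.9 CPM in FK866 and 146.6 ± 22.1 CPM in control (SD, n = 2 each), a log2 fold change of 0.93 ± 0.22 (SE). Without FK866 replicate 1 the log2 value was 0.45 and Bhlhe40 was not called, and without FK866 replicate 2 it was 1.26 and called. In every such set with 1 library left out, the lone library of its group is assumed to vary like the 2 of the other group, which alone give the spread. Every such set also mixes treatment with any difference between replicates 1 and 2.

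Bhlhe41, which encodes the related repressor DEC2, was at the limit of detection. It had 0 and 4 counts in FK866 libraries, against 4 and 2 counts in controls, and did not pass the filter. A count of 3 corresponds to 0.0882 to 0.111 CPM in FK866 libraries and to 0.0826 to 0.0920 CPM in controls, so no fold is given. Of the DEC pair, these ILC2s thus held transcripts of Bhlhe40 at 130.9 to 345.7 CPM and of Bhlhe41 at 4 counts or fewer.

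Ciart, whose promoter with its E-boxes is printed above, had 14.98 and 17.8 CPM in FK866 libraries, against 8.73 and 11.2 CPM in controls. The groups did not overlap, and the log2 fold change was 0.72 ± 0.24 (SE). Ciart was not called with all 4 libraries, but it was called without control replicate 2 (log2 0.91), and its value was 0.45 without control replicate 1. Unlike Hlf and Nfil3 it was lower in replicate 1 than in replicate 2, by factors of 0.841 in FK866 and 0.777 in control.

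**Figure D3:**
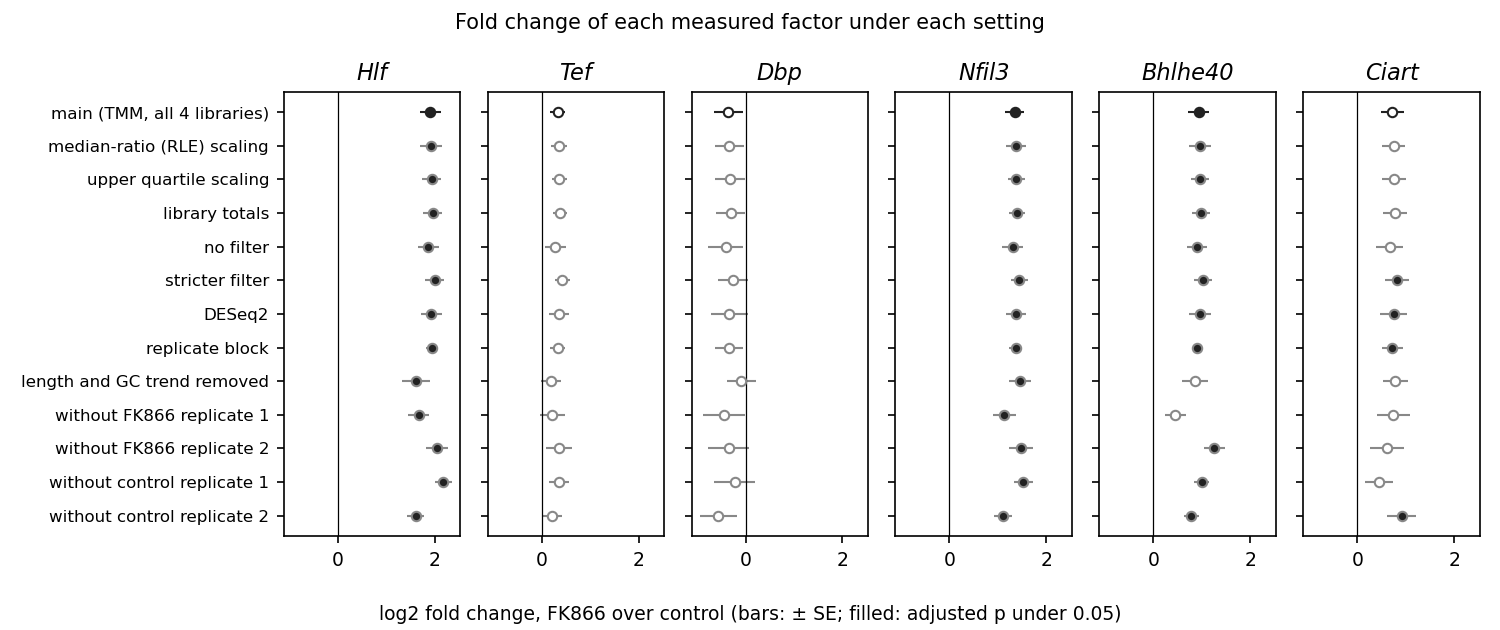
Log2 fold change (FK866 over control, bars ± SE) of the 6 factors that passed the filter, with all 4 libraries and TMM scaling in the top row and each other setting below; filled points have an adjusted p under 0.05. Hlf and Nfil3 are filled in every row, Bhlhe40 is open in the rows without FK866 replicate 1 and without the length and GC trend, and Tef and Dbp are open in every row.

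Compared per kilobase of exon, the order of the levels in FK866 libraries was Bhlhe40 (59.5 ± 19.7 CPM per kilobase, SD, n = 2), Nfil3 (50.6 ± 5.68), Hlf (37.6 ± 4.90), Ciart (7.25 ± 0.888), Tef (5.71 ± 0.078), Dbp (1.67 ± 0.014) and Bhlhe41 (0.0088 ± 0.012). Bhlhe40 and Nfil3 overlapped there. In control libraries it was Bhlhe40 (31.2 ± 4.70), Nfil3 (19.9 ± 4.98), Hlf (10.01 ± 3.25), Tef (4.55 ± 0.531), Ciart (4.41 ± 0.782), Dbp (2.14 ± 0.467) and Bhlhe41 (0.013 ± 0.0051). Only Tef and Ciart overlapped as neighbours in control. The top 3 and the bottom 2 of the order were the same genes in both groups. The rest of the order and the overlaps depend on the gene length used. Per kilobase of the longest transcript, Tef would lie above Ciart in both groups without overlap. In FK866 libraries Bhlhe40 would then lie clear of Nfil3, while Nfil3 and Hlf would overlap.

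The genes whose centred log2 CPM over the 4 libraries lay closest to a factor were picked among 8430 abundant genes, by root mean square difference. For Hlf they were Tnfaip3 (0.053), which encodes the NF-κB inhibitor A20, Tnfrsf9 (0.081), which encodes the costimulatory receptor 4-1BB, and the α-arrestin gene Arrdc3 (0.096). For Nfil3 they were Lrrc1 (0.043), the asparagine synthetase gene Asns (0.044) and Zbtb21 (0.049). For Bhlhe40 they were Rfx1 (0.052), Calcrl (0.055), a receptor subunit for CGRP-family peptides, and Nfkbia (0.057), which encodes IκBα. For Ciart they were G2e3 (0.015), Ago1 (0.021) and Cdkn1b (0.034), for Tef Zdhhc7 (0.011), Dtnbp1 (0.016) and Zfp68 (0.016), and for Dbp Ubox5 (0.016), Acp2 (0.023) and Rps6ka4 (0.029). The likeness rests on 4 libraries in 2 groups and describes these libraries only.

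Of 17 measured core clock genes, 7 were called higher (Rora, Nr1d1, Per1, Nr1d2, Clock, Arntl and Csnk1d) and 0 lower, where 5.31% of all tested genes were called higher and 7.89% lower. These shares are the background of the lists that follow as well. All the lists were chosen with earlier results of these data known, so their counts and medians are a description. The median log2 fold change of the 17 was 0.68, against 0.03 over all tested genes. Among them Nr1d1, the repressor REV-ERBα, had 140.2 and 138.1 CPM in FK866 libraries, against 43.1 and 36.1 CPM in controls (log2 1.81 ± 0.15, SE, edgeR adjusted p = 0.000769). Per1, a light- and stress-responsive period gene, had 34.4 and 29.3 CPM in FK866 libraries, against 10.2 and 8.16 CPM in controls (log2 1.79). Nr1d2 (log2 0.91) and Rora (1.70) also rose, while Per3 had a log2 value of -0.57 and was not called. With the trend in transcript length and GC content removed, 3 of these genes stayed called higher (Per1, Nr1d1 and Rora). Csnk1d was not called without FK866 replicate 1, Per2 was called higher without control replicate 1, and Fbxl21 was called lower without FK866 replicate 1 or without control replicate 2.

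Sorted by the element that is known to drive them, D-box genes of the clock had 4 of 8 members called higher (Per1, Rora, Nr1d1 and Nr1d2) and 0 lower, and the median over the list was 0.81. Genes with ROR and REV-ERB elements had 4 of 7 called higher, namely Nr1d1, Nfil3 itself, Clock (log2 0.90) and Arntl (0.73), the gene of BMAL1. Nfil3 was chosen by this contrast, so its part in this count and in the list median is no separate result. Without the length and GC trend, Clock (0.41) and Arntl (0.57) were not called. Of 13 E-box genes, 3 were called higher and 0 lower, with a median of 0.41, and without control replicate 1 Per2 and Klf10 joined them, making 5. The 3 were Nr1d1, Per1 and Nr1d2, which stand in several lists. The 3 lists share members, so their counts are not separate results.

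The known metabolic targets of the PAR-bZIP factors in mouse liver and brain had 5 measured genes. Of these 1 was called higher and 0 lower, where 5.31% of all tested genes were called higher and 7.89% lower. It was Abcb1a, the P-glycoprotein drug exporter, with 31.1 and 47.5 CPM in FK866 libraries, against 15.9 and 11.2 CPM in controls (log2 1.53 ± 0.26, SE, edgeR adjusted p = 0.00808). Por, the electron donor of cytochrome P450 enzymes, had a log2 value of 0.20, Alas1, which starts haem synthesis, -0.11, and pyridoxal kinase Pdxk 0.07. None of these 3 was called. Cyp2b10 and Cyp2a5, which are liver enzymes, did not pass the filter.

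Regulators that work with NFIL3 in the development of innate lymphoid cells went both ways. Of 9 measured, 2 were called higher and 1 lower. Tox, a factor of innate lymphoid progenitors, had 130.7 and 78.8 CPM in FK866 libraries, against 60.5 and 34.9 CPM in controls (log2 1.13 ± 0.29, SE, edgeR adjusted p = 0.0368). Runx3 rose by less (log2 0.55). Id2, the inhibitor of E proteins that all innate lymphoid cells express, had 646.0 and 538.0 CPM in FK866 libraries, against 936.9 and 1250 CPM in controls (log2 -0.89 ± 0.16, SE, edgeR adjusted p = 0.0111). Without FK866 replicate 1 neither Tox nor Runx3 was called, and Runx3 was not called without FK866 replicate 2 either. Gata3 (-0.40) was not called with all libraries, was called lower without any 1 library except FK866 replicate 2, and Tox2 (-0.62) was called lower without FK866 replicate 1 or control replicate 2. Tcf7 (0.53) was called higher without FK866 replicate 2 or control replicate 1.

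Of 6 measured cytokine genes tied to NFIL3 or BHLHE40 in lymphocytes, 2 were called lower and 0 higher, and the list median was a log2 value of -0.85. Il13 had 65.0 and 34.6 CPM in FK866 libraries, against 161.3 and 117.6 CPM in controls (log2 -1.49 ± 0.28, SE, edgeR adjusted p = 0.0118). Il4 fell by less (-0.78) and was not called without FK866 replicate 2 or without control replicate 2. Csf2, the GM-CSF gene that BHLHE40 is known to support in T cells, had 459.4 and 213.8 CPM in FK866 libraries, against 764.4 and 611.5 CPM in controls, and was not called (log2 -1.03). It was called lower with upper quartile scaling, library totals, no filter or the stricter filter. These genes differ between the libraries of a group, Il9 most of all, with 358.3 and 53.1 CPM in FK866 libraries and 400.7 and 62.5 CPM in controls. Which of them were called depended on the library left out. Such a set holds unequal replicate numbers in FK866 and control, so differences between the replicates enter its fold changes. Csf2 was called lower in each of these sets except that without FK866 replicate 2. Il9 was called lower without FK866 replicate 1 or control replicate 2, but higher without control replicate 1.

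Of 5 measured genes named for the C/EBP family, 1 was called higher and 0 lower. It was Ddit3, the stress factor CHOP (log2 1.29). Of 18 measured E-box-binding bHLH factors outside the DEC pair, 3 were called higher and 0 lower, and the list median was -0.16. Those called were the MYC antagonists Mxd1 (log2 2.10 ± 0.19, SE, edgeR adjusted p = 0.000973) and Mxi1 (1.59), and Usf1 (0.59). Myc, Mycn, Mxd3, Mnt, Mlx and Srebf2 were not called. Both FK866 libraries lay below both controls in each, as they did in 29.3% of tested genes. Their log2 values lay between -2.44 (Mxd3) and -0.28 (Mnt). Mxd3 was near the floor in FK866 libraries, with 0.148 and 0.206 CPM there and 1.29 and 0.675 CPM in controls. Usf1 was not called without either FK866 library or without control replicate 1. With 1 library left out, 2 members of this list were called lower: Myc and Srebf2 without FK866 replicate 1 or control replicate 2, and Mycn and Max without control replicate 1. Of 5 measured HES and HEY genes, repressors of the same protein class as DEC1, Hes1 was called higher (1.03), but not without FK866 replicate 2 or control replicate 2. Hes2 was called higher without FK866 replicate 2, control replicate 1 or control replicate 2, and Hes6 lower without control replicate 1. Mean levels were low for Hes2 (1.70 CPM in FK866, 0.138 CPM in control), Hey1 (1.07 and 0.147 CPM) and Hey2 (0.502 and 0.570 CPM). Hes6, the most abundant of the 5, was lower in FK866 but not called with all libraries (19.4 and 28.2 CPM, log2 -0.54). With the trend in transcript length and GC content removed, the log2 values were 0.95 for Tox, 0.49 for Runx3, -0.79 for Il4, 0.71 for Usf1, 1.11 for Hes1 and 0.63 for Nr1d2. These genes and Csnk1d were then not called, although for Il4, Usf1 and Hes1 the value was no smaller, and Id2, Il13, Abcb1a, Ddit3, Mxd1 and Mxi1 kept their calls. With no filter on low counts, Runx3 (0.50), Usf1 (0.55) and Hes1 (0.98) were not called either.

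**Figure D4:**
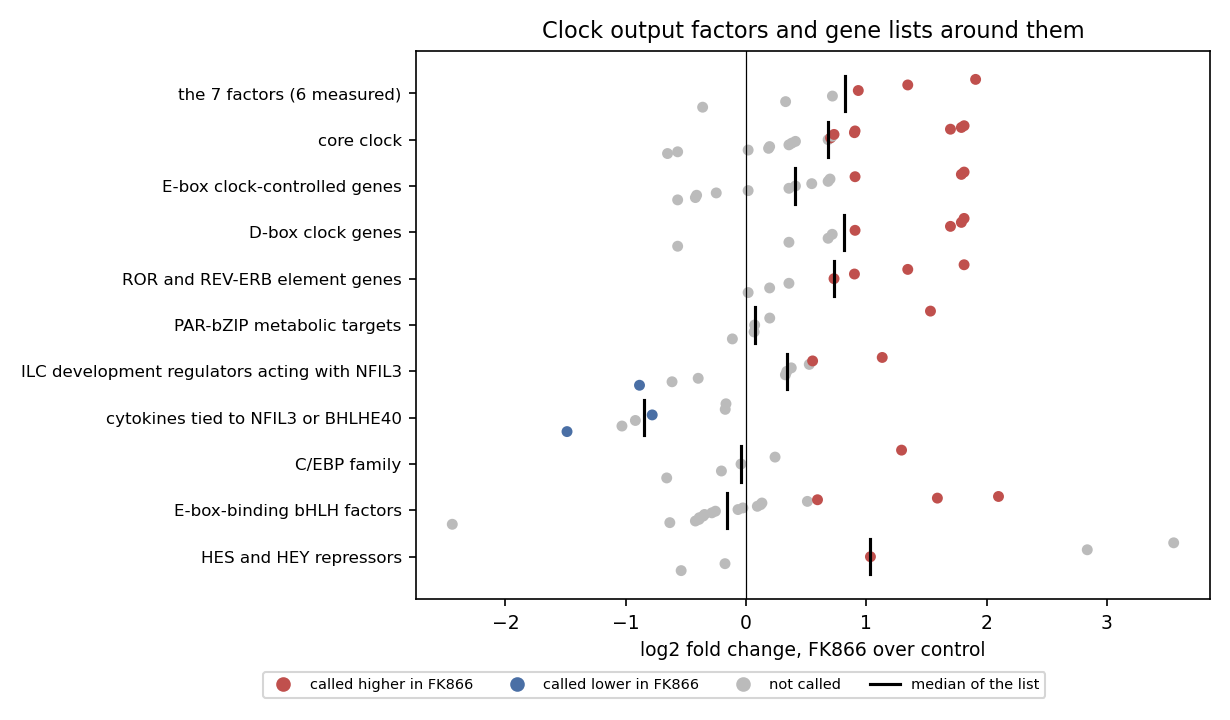
Log2 fold change (FK866 over control) of each tested gene in the 7 factors and in the 10 lists around them, red for genes called higher, blue for genes called lower, grey for the rest; black bars are list medians. The medians of the core clock, D-box, and ROR and REV-ERB lists, which share members, lie between 0.68 and 0.81. The ROR and REV-ERB list also holds Nfil3, a factor chosen by this contrast. The E-box list has a median of 0.41 and the cytokine list of -0.85. The highest median, 1.03, is that of the HES and HEY list, with 5 tested genes and a summed CPM that overlaps between the groups.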

How the data were processed

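RNA-seq was done on sorted ILC2s of mouse colon, with 2 FK866 and 2 control libraries grouped by title. Per the labels' protocols, TRIzol RNA went through SMART-Seq HT cDNA synthesis and Nextera XT library preparation, a chemistry that does not mark the strand. The authors deposited raw read counts per Ensembl gene; the tools named are cutadapt 1.9 and HISAT2 2.2.1, and the build mm10, per the submitters' processing notes. For the counting program, its annotation and its strand setting, nothing is given in the sources used here. Symbols, positions and lengths came from GENCODE M21, which matched 55227 of 55487 gene IDs. The 260 others held 0.0258% to 0.0494% of each library's counts and were kept.

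Counts were tested with edgeR 4.0.16 in R 4.3.3 (quasi-likelihood F test, two-sided, TMM scaling, treatment as the only term). The filter filterByExpr (minimum count 10, minimum total 15) left 19194 genes. Each SE is the absolute log2 fold change over the root of its F statistic. CPM use the total of tested genes times the TMM factor, and levels are compared between genes per kilobase of all annotated exons. Since no label says that replicates are separate cultures, the p-values reflect the spread among these 4 libraries alone, possibly technical spread; replicates differed by more than sampling noise (chi-square per degree of freedom 15.6 in FK866 and 28.8 in control). Floors of 3 counts per library cover counting error only.

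The factors and gene lists were chosen with earlier results of these data known. All 7 factors are named. From each list the text names up to 4 called genes with the smallest adjusted p, or, with no call, the 2 of highest mean CPM. It also names the 3 genes nearest to each factor among those with mean log2 CPM of at least 3. Other list members, named where a left-out library moved a count or beside a called gene, and Sphk2 were added after their values were seen. Alternatives were other scalings, no filter or a stricter one (50 counts in 2 libraries), DESeq2 1.42.0, a replicate block, removal of the trend with transcript length and GC content, and leaving out each library, where the spread comes from the 2 libraries of the other group alone. The procedure was run on simulated counts drawn independently for each library. They lack the replicate differences shared between the groups, so that run cannot show how the procedure handles them. No gene set test was run.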

Additional observations from a re-analysis of the deposited data

How the results depend on the processing

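Hlf and Nfil3 were called higher in FK866 under all 12 alternatives, and all 6 measured factors kept their sign in each. Hlf ranged from 1.61 to 2.18, Nfil3 from 1.11 to 1.52, Bhlhe40 from 0.45 to 1.26, Ciart from 0.45 to 0.91, Tef from 0.19 to 0.43 and Dbp from -0.57 to -0.087 (log2 fold change). Bhlhe40 was not called with the length and GC trend removed (0.86) or without FK866 replicate 1. Ciart was called with the stricter filter, DESeq2 and the replicate block, and without control replicate 2. The number of factors called higher was between 2 and 4, and 0 were called lower.

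Over all genes, 1020 were called higher and 1514 lower. These became 1810 higher with the stricter filter, 377 and 948 with the trend removed, and 661 to 1457 higher and 828 to 2462 lower as each library was left out. Replicate numbers are not stated to pair the libraries. Differences between replicates 1 and 2 correlated at 0.49 between the groups across 9801 genes, which are not independent, and with the replicate block 2197 genes were called higher and 3059 lower. Under the block the regulators acting with NFIL3 had 4 called higher (Tox, Tcf7, Ets1 and Runx3) and 3 lower (Id2, Tox2 and Gata3), Csf2 was called lower, and so were Myc, Mlx, Srebf2, Fbxl21 and Hes6, while Per2, Klf10, Hes2 and Hey1 were called higher. The log2 ratio of PAR-bZIP sum to Nfil3 differed by 0.085 between FK866 and control, by -0.056 with the longest transcript, by 0.12 in CPM without length, and by 0.081 to 0.089 as each library was left out. The cause of these changes was not tested. Bhlhe41 had at most 4 counts in a library, too few for a fold change to be given.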
